A study of Mus musculus with 15 samples.

Results

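Neutrophils store antimicrobial proteins and proteases in cytoplasmic granules, and the expression of 10 genes that encode such proteins was followed by RNA sequencing of mouse hematopoietic stem and progenitor cells. The genes were picked by name and were found by matching the Ensembl gene IDs of the raw count table to mouse gene symbols, which gave 10 of 45232 gene IDs. Elane (neutrophil elastase), Mpo (myeloperoxidase), Prtn3 (proteinase 3) and Ctsg (cathepsin G) encode proteins of primary granules. Ltf (lactoferrin), Ngp (neutrophilic granule protein), Camp (cathelicidin) and Lcn2 (lipocalin 2) encode proteins of secondary granules. S100a8 and S100a9 encode both subunits of calprotectin, an abundant cytosolic protein of neutrophils and monocytes, and were kept apart from the granule classes.

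Granules are filled as they are formed, so the granule genes are switched on in order along granulocyte maturation. Primary granule genes are transcribed in granulocyte-monocyte progenitors and promyelocytes, and secondary granule genes later, in myelocytes and metamyelocytes, when the factor C/EBP epsilon is active. Stem cells carry little of either kind of transcript, although multipotent progenitors can hold low levels of Mpo mRNA.

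CD45.2+ LSK cells (lineage-negative, Sca-1+ and c-Kit+), the bone marrow fraction that holds stem and multipotent progenitor cells, were sorted from mice of the C57BL/6 strain. In 4 of the 5 groups the cells carried Jak2 V617F, an activating mutation found in myeloproliferative neoplasms, together with Idh2 R140Q, which makes the enzyme produce 2-hydroxyglutarate. The mutant alleles had been recombined by Mx1-Cre, which polyI:polyC induces in blood and other tissues, and the mutant marrow had been transplanted with CD45.1 wild-type competitor marrow into irradiated CD45.1 hosts. The hosts received vehicle, AG221 (an inhibitor of mutant IDH2, 40 mg/kg), ruxolitinib (a JAK inhibitor, 60 mg/kg) or both drugs at those doses (the combined group), by gavage for 21 to 28 days with the last dose about 1.5 hours before sacrifice. The WT group held wild-type LSK cells, and the labels do not say whether these came from transplanted or vehicle-treated mice, so genotype, transplantation and dosing cannot be told apart in differences from WT. Each group had 3 libraries, named here by the letter and number in their labels: B28, B30 and B31 for WT, A1, A3 and A4 for vehicle, A8, A9 and A10 for AG221, A14, A16 and A17 for ruxolitinib, and B24, B25 and B26 for the combined group. The labels give neither the age of the mice nor whether each library came from a separate mouse, so p-values measure only the spread between these libraries.

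The meaning of the letters A and B was not given. Because vehicle, AG221 and ruxolitinib libraries all had an A and WT and combined libraries a B, whatever the letter stood for and the group cannot be told apart in comparisons across the letters. Ddx3y, a gene of the Y chromosome, stood at 124 to 206 CPM (counts scaled to library size) in the 12 mutant libraries and at 0 to 0.101 in WT, and Xist, which marks female cells, at 0.365 to 19.5 and 455 to 511 CPM respectively. The sex of the sorted cells and the difference from WT therefore cannot be told apart either.

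Total counts ran from 18836625 in B24 to 32174287 in A3, with a median of 25545779, so that 3 counts, taken as the floor, stood for 0.0957 to 0.157 CPM. Floors of this kind cover counting error only. Of the genes of the LSK gate, Kit, which encodes c-Kit, stood at 740 to 1552 CPM in the 15 libraries. Ly6a, which encodes Sca-1, ran from 13.1 CPM in A4 to 166 CPM in A1. Cd34, which is not part of that gate, stood at 665 to 1108 CPM. Several libraries stood apart from the rest. A8, A10 and A16 were short of GC-rich transcripts: the mean log2 deviation of the genes with the highest GC content minus that of the lowest was -1.09, -0.76 and -0.41, against -0.19 to 0.63 in the other 12. A3 held more eosinophil transcripts than its group (summed level of 7 markers 574 CPM, led by Prg2 at 408 CPM, against 98.8 and 90.4 CPM). A16 held more erythroid transcripts (9 markers, 3580 CPM, led by Car1 at 2410 CPM, against 951 and 923 CPM in A14 and A17).

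All 10 genes are protein coding, with the Ensembl IDs ENSMUSG00000020125 (Elane), ENSMUSG00000009350 (Mpo), ENSMUSG00000057729 (Prtn3), ENSMUSG00000040314 (Ctsg), ENSMUSG00000032496 (Ltf), ENSMUSG00000032484 (Ngp), ENSMUSG00000038357 (Camp), ENSMUSG00000026822 (Lcn2), ENSMUSG00000056054 (S100a8) and ENSMUSG00000056071 (S100a9). Elane lies at chr10:79886247-79888215 and Prtn3 at chr10:79874476-79883174, on the plus strand of GRCm38, where both are neighbours, while Mpo lies at chr11:87793581-87804413 on the plus strand and Ctsg at chr14:56099881-56102574 on the minus strand. Ltf (chr9:111019271-111042767, plus), Ngp (chr9:110419747-110423012, plus) and Camp (chr9:109847379-109849617, minus) share a chromosome, and Lcn2 lies at chr2:32384633-32388252 on the minus strand. S100a8 (chr3:90668978-90670035, plus) and S100a9 (chr3:90692632-90695721, minus) are neighbours. Antisense genes overlap 15.0% of the exon bases of Mpo (Gm11505) and 9.18% of those of Prtn3 (Plppr3), and since strand-specific counting was not stated, reads from either gene of a pair cannot be told apart.

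The promoters of 4 members are shown because levels of members of a class were correlated over the 15 libraries, as given below. The letters found there were also counted by class, and the difference between the classes was not tested. RefSeq promoter sequences of GRCm38.p6, 250 bases before to 50 bases after the start given by RefSeq, were matched for 10 of 10 members. That start lay 65 bases downstream of the Ensembl start above for Elane, 203 for Mpo, 21 for Ltf, 61 for Ngp, 161 for Camp and 93 for S100a8, all with the Ensembl start inside the window. For Lcn2 (513 bases) and Prtn3 (5191) the Ensembl start lay outside it, and for Ctsg and S100a9 both starts were the same. The matches of Lcn2 and Prtn3 thus describe the RefSeq start only. The motifs TTNNGCAA (C/EBP) and GAGGAA (PU.1) were searched on both strands and are in capitals, and no match of either overlapped a match of the other. Elane is shown at chr10:79886062-79886361, Mpo at chr11:87793534-87793833, Ltf at chr9:111019042-111019341 and Ngp at chr9:110419558-110419857, all on the plus strand.
Elane: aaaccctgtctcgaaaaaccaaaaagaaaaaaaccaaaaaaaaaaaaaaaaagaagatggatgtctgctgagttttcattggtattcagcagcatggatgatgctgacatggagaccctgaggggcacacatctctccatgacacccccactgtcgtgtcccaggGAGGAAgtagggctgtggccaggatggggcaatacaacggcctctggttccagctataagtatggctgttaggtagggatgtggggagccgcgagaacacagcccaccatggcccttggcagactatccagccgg
Mpo: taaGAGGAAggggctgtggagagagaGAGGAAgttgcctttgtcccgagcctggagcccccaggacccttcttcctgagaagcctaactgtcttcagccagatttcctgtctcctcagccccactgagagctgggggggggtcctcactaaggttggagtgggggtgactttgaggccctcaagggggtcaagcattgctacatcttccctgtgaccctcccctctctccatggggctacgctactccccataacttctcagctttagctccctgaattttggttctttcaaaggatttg
Ltf: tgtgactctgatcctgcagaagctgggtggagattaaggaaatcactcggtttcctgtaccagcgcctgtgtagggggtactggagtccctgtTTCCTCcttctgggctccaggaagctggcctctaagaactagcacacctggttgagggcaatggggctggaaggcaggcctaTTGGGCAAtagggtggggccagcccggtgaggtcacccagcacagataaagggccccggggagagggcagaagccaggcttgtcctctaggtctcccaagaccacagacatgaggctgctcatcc
Ngp: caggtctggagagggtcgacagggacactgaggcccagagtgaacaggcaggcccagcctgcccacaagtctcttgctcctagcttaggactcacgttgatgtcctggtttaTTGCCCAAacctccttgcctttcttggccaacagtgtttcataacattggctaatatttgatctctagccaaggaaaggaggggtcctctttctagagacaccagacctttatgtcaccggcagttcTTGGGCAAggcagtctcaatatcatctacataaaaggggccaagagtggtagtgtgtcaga

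The PU.1 letters stood in the promoters of all 4 primary granule genes, in those of Ltf and Lcn2 and in that of S100a8, 7 of 10 members, against 28.3% of 32851 promoters of the same length. The C/EBP letters stood in 0 of 4 primary and 3 of 4 secondary granule promoters (Ltf, Lcn2 and, at -138 and -11 from the start, Ngp) and in that of S100a9, 4 of 10 members, against 10.8% of all promoters. AACNG, the core bound by MYB, stood in 10 of 10 and in 80.3% of all, and it overlapped the PU.1 match of Ltf by its last base and the C/EBP match of Lcn2. A match describes letters, not a bound site, and where there is none, only that these letters are not in the window.

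Primary granule genes were the most abundant members. Elane, a serine protease, stood at 650, 780 and 669 CPM in WT, 1214, 3140 and 1125 CPM in vehicle, 4822, 4415 and 3680 CPM in AG221, 4198, 2523 and 3175 CPM in ruxolitinib, and 907, 1069 and 1142 CPM in combined libraries. WT libraries were lowest and AG221 libraries high, and A3 stood far above the other vehicle libraries. Mpo, which makes hypochlorous acid, stood at 2364, 2388 and 2164 CPM in WT, 5191, 7870 and 6948 CPM in vehicle, 12390, 10808 and 10439 CPM in AG221, 12141, 8096 and 9117 CPM in ruxolitinib, and 2629, 3375 and 4997 CPM in combined libraries. For Mpo neither WT nor combined libraries overlapped with vehicle, and ruxolitinib libraries overlapped with AG221.

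Prtn3, a protease encoded beside Elane, stood at 320, 337 and 338 CPM in WT, 677, 869 and 820 CPM in vehicle, 1136, 1668 and 1217 CPM in AG221, 1299, 744 and 1027 CPM in ruxolitinib, and 397, 490 and 732 CPM in combined libraries. Ctsg, a further granule protease, stood at 190, 205 and 209 CPM in WT, 536, 758 and 652 CPM in vehicle, 1691, 1168 and 1383 CPM in AG221, 993, 703 and 814 CPM in ruxolitinib, and 338, 383 and 695 CPM in combined libraries. For both, B26 was the highest combined library and reached into the vehicle range. All 4 genes had the same order of group means: WT, combined, vehicle, ruxolitinib and AG221. Neighbours in that order overlapped for combined and vehicle (except Mpo), for vehicle and ruxolitinib (except Mpo) and for ruxolitinib and AG221 (except Ctsg), whereas WT and combined libraries were apart for each.

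Secondary granule transcripts were scarcer by far and varied more within groups. Ltf, an iron-binding protein, stood at 4.97, 5.39 and 3.76 CPM in WT, 33.3, 11.1 and 18.5 CPM in vehicle, 50.1, 43.0 and 91.2 CPM in AG221, 123, 25.8 and 17.2 CPM in ruxolitinib, and 0.313, 17.1 and 21.3 CPM in combined libraries. Lcn2, which binds bacterial siderophores, stood at 1.81, 2.80 and 2.98 CPM in WT, 25.2, 25.8 and 15.4 CPM in vehicle, 59.2, 43.1 and 82.4 CPM in AG221, 62.7, 15.0 and 16.9 CPM in ruxolitinib, and 2.45, 8.40 and 15.4 CPM in combined libraries. A14 was far above the other ruxolitinib libraries and B24 far below the other combined libraries for both genes. Ngp, related to cathelicidins, stood at 10.9, 20.5 and 13.5 CPM in WT, 59.1, 33.4 and 21.4 CPM in vehicle, 100.02, 79.9 and 186 CPM in AG221, 187, 22.6 and 37.4 CPM in ruxolitinib, and 0.939, 18.7 and 55.3 CPM in combined libraries. Camp, the precursor of an antimicrobial peptide, stood at 4.83, 8.70 and 7.51 CPM in WT, 10.7, 15.95 and 3.79 CPM in vehicle, 28.3, 24.7 and 45.0 CPM in AG221, 47.8, 5.13 and 11.4 CPM in ruxolitinib, and 0.417, 5.53 and 11.1 CPM in combined libraries. B24 held 6 counts of Ltf, 18 of Ngp, 8 of Camp and 47 of Lcn2, all above the floor of 3 counts.

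S100a8 stood at 33.6, 55.0 and 44.1 CPM in WT, 55.1, 82.9 and 14.5 CPM in vehicle, 148, 164 and 167 CPM in AG221, 170, 54.9 and 70.5 CPM in ruxolitinib, and 25.05, 42.5 and 42.3 CPM in combined libraries. S100a9, its partner, stood at 19.6, 33.2 and 27.8 CPM in WT, 46.8, 58.8 and 12.7 CPM in vehicle, 102, 109 and 147 CPM in AG221, 151, 20.0 and 40.1 CPM in ruxolitinib, and 6.99, 27.5 and 30.4 CPM in combined libraries. Vehicle and WT overlapped for both calprotectin genes, since A4 lay below all WT libraries. For S100a8, S100a9 and Camp the combined group had the lowest mean, and for the other 7 members WT had.

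**Figure D1:**
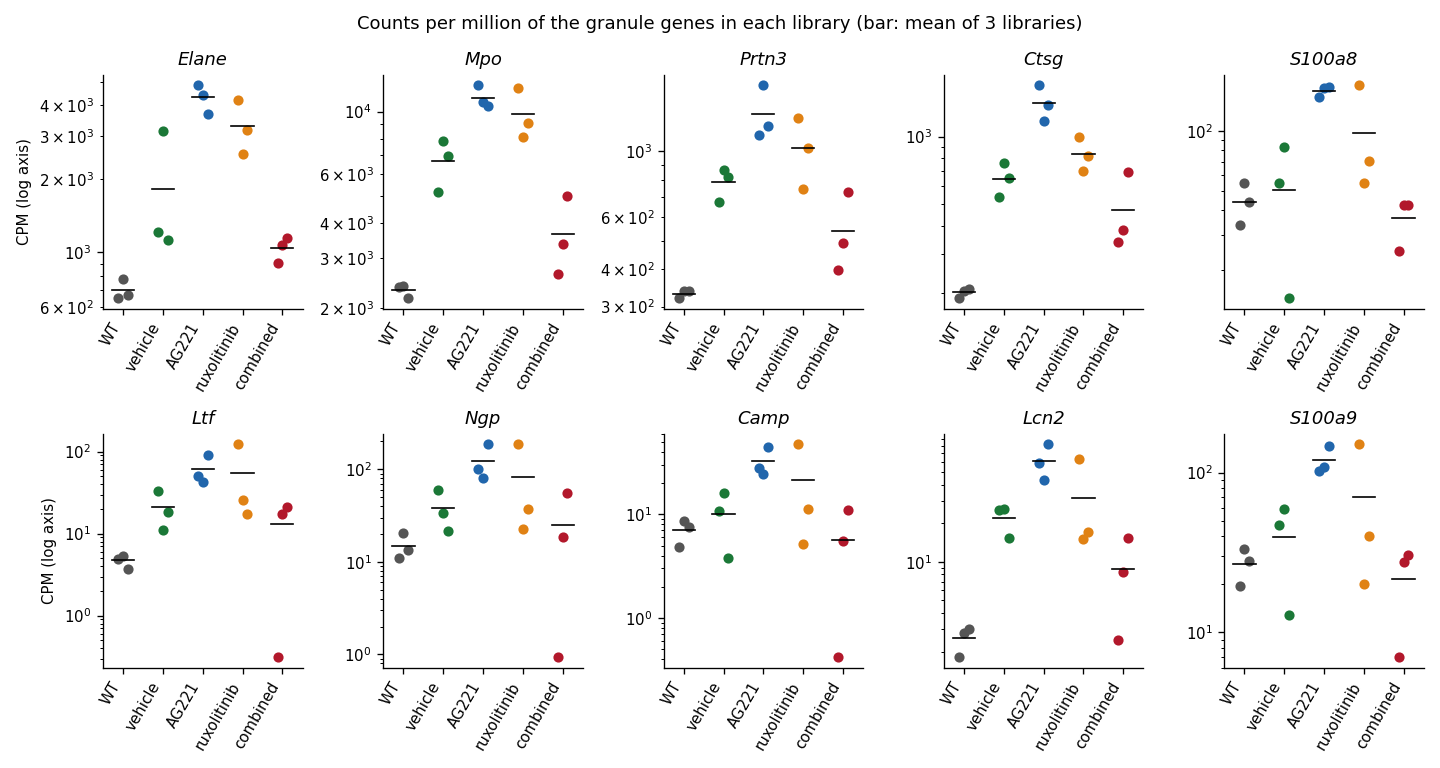
CPM of each of the 10 genes (log axis) in the 15 libraries, grouped on the horizontal axis as WT, vehicle, AG221, ruxolitinib and combined; points are libraries and bars the mean of 3. AG221 libraries lie above vehicle libraries for all 10 genes, and 1 combined library, B24, lies far below the others for Ltf, Ngp and Camp.

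Per base of exon (RPKM), the difference in abundance between the classes was large. In WT the mean was 711 RPKM for Elane, 673 for Mpo, 195 for Ctsg and 192 for Prtn3, but 12.2 for Ngp, 9.25 for Camp, 1.36 for Ltf and 0.965 for Lcn2. S100a8 (63.8 RPKM) and S100a9 (51.4 RPKM) stood between the classes. In AG221 libraries the means were 4376 RPKM for Elane, 3275 for Mpo, 1369 for Ctsg and 774 for Prtn3, and 99.8 for Ngp, 43.1 for Camp, 23.5 for Lcn2 and 17.8 for Ltf. The lowest primary granule gene was thus above the highest secondary granule gene in both groups. Together the 10 genes took 0.393% of all counts in B31 and 1.88% in A8, most of it Mpo (0.244% in B31 and 1.13% in A8).

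Differences were tested by quasi-likelihood F tests in edgeR, with p-values adjusted by the Benjamini-Hochberg method over the 17834 genes that passed a filter on low counts, and a gene was called at an adjusted p under 0.05. All 10 members passed the filter. All 4 primary granule genes and Lcn2 rose in vehicle-treated mutant cells relative to WT. In vehicle against WT, Mpo was higher by 1.53 ± 0.23 (log2 ± SE, n = 3 libraries per group, edgeR adjusted p = 0.00101), from a mean of 2305 ± 123 to 6669 ± 1361 CPM (SD). Ctsg was higher by 1.69 ± 0.25 (edgeR adjusted p = 0.00102), Elane by 1.38 ± 0.32 (edgeR adjusted p = 0.00934) and Prtn3 by 1.25 ± 0.24 (edgeR adjusted p = 0.00426). Lcn2 had the largest difference of the members, 3.12 ± 0.65 (edgeR adjusted p = 0.00595), from 2.53 ± 0.629 to 22.1 ± 5.89 CPM. In all, 5 of 10 members were called higher, beside 15.4% of the genes tested, and 7 had all vehicle libraries above all WT libraries, beside 25.6% of the genes tested. In bulk RNA, fewer cells of a type and less RNA per cell cannot be told apart, here and in each comparison that follows.

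Ltf (2.15 ± 0.96, edgeR adjusted p = 0.0956) and Ngp (1.34, edgeR adjusted p = 0.289) were also above WT in each vehicle library but did not pass the test. Camp (0.54), S100a9 (0.56) and S100a8 (0.20) overlapped with WT, with edgeR adjusted p of 0.651, 0.549 and 0.779. The median log2 difference was 1.46 over the primary and 1.75 over the secondary granule genes, against 0.38 for the calprotectin pair and -0.09 over all genes tested. The classes differed in spread: pooled within groups, the SD of the class mean was 0.289 for primary and 1.33 for secondary granule genes (log2 CPM). Without B24 these were 0.268 and 0.810. Without A3, the vehicle library with the most Elane, the Elane difference was 0.76 (edgeR adjusted p = 0.0158, range over alternatives 0.000519 to 0.034), and without the same library that of S100a8 turned to -0.32.

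Averaged over the 4 genes of a class, the mean log2 CPM of the primary granule genes was 9.16 ± 0.06 in WT, 9.91 ± 0.40 in combined, 10.57 ± 0.36 in vehicle, 11.14 ± 0.33 in ruxolitinib and 11.58 ± 0.10 in AG221 libraries (SD, n = 3). That of the secondary granule genes was 2.56 ± 0.31, 2.55 ± 2.47, 4.24 ± 0.57, 4.87 ± 1.43 and 5.89 ± 0.53 in the same order. The difference between the classes, primary minus secondary, was 6.60 ± 0.25 in WT, 6.34 ± 0.73 in vehicle, 5.69 ± 0.61 in AG221, 6.26 ± 1.13 in ruxolitinib and 7.36 ± 2.12 in combined libraries. Differences in AG221 libraries (4.99 to 6.15) lay below those in WT (6.36 to 6.86), and all other pairs of groups overlapped. The spread came from single libraries: the summed CPM of primary over secondary granule genes was lowest in A10 (41.3) and A14 (44.4), was 176 in A16, and was highest in B24 (1036), where the primary granule mean of 9.56 stood above all WT libraries while the secondary granule mean of -0.25 stood far below them (2.25 to 2.87). Without B24, the 2 combined libraries left had secondary granule means of 3.48 and 4.41, also above WT.

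**Figure D2:**
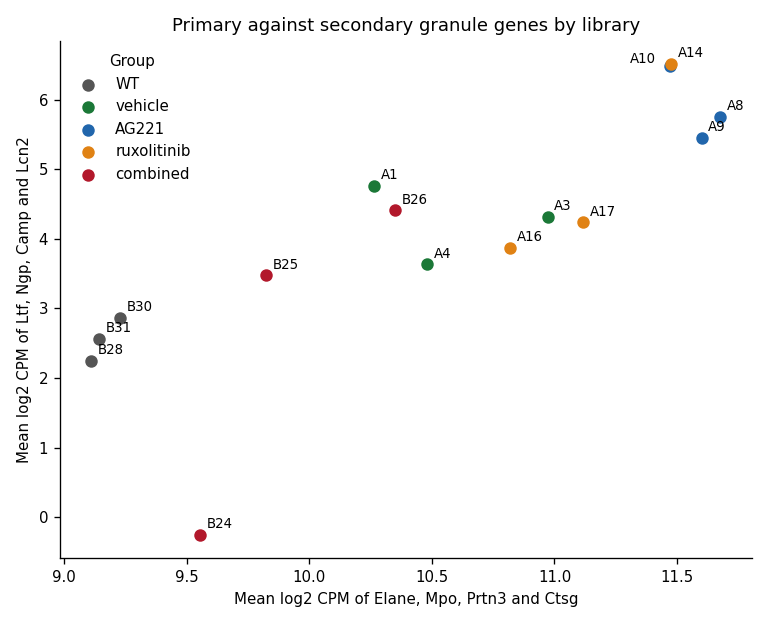
Mean log2 CPM of the 4 primary granule genes (horizontal) and the 4 secondary granule genes (vertical) in each library, coloured by group. WT libraries lie at the lower left and AG221 libraries at the upper right, with A14 beside them, and B24 lies alone at the bottom with a secondary granule mean of -0.25.

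The members of a class varied together. Over the 15 libraries, the median Pearson r between log2 CPM values was 0.95 among the 6 pairs of primary granule genes, 0.87 among the 6 pairs of secondary granule genes and 0.74 among the 16 pairs across the classes. After the group means were taken off, the medians were 0.63, 0.94 and 0.64, so secondary granule genes were high or low together within groups as well. Without B24 the last 3 values were 0.59, 0.86 and 0.48, and without A14 0.57, 0.94 and 0.53. The points share library, depth and group, and the values describe these libraries only. Among all other genes tested, the profile most like the primary granule mean was that of Alas1, which makes the first enzyme of heme synthesis (r = 0.991, 129 to 728 CPM), followed by Igsf6 (0.983), Trem3 (0.982), Anxa3 (0.979), Hp (0.978) and Ptgr1 (0.977). For the secondary granule mean they were Slfn4 (r = 0.955, 0.731 to 9.14 CPM), the neutrophil surface gene Cd177 (0.951), Snora68 (0.911), Vsir (0.909), Itgb2l (0.907) and Tns4 (0.903).

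The effect of each drug was asked of the mutant cells by comparing each treated group with vehicle, and these 3 comparisons share the vehicle libraries. With AG221 alone, no member was lower than in vehicle. All 10 members had each AG221 library above each vehicle library, beside 12.7% of the genes tested, but only Ctsg was called higher, 1 of 10 members beside 0.471% of the genes tested. Ctsg differed by 1.12 ± 0.24 (edgeR adjusted p = 0.0489), from 649 ± 111 to 1414 ± 263 CPM. Elane (1.24 ± 0.32, edgeR adjusted p = 0.0626), Mpo (0.75 ± 0.22, edgeR adjusted p = 0.0813), Prtn3 (0.77 ± 0.24, edgeR adjusted p = 0.0885) and S100a8 (1.65 ± 0.52, edgeR adjusted p = 0.0916) missed the threshold, as did S100a9 (1.597), Lcn2 (1.47), Ltf (1.55), Ngp (1.68) and Camp (1.68) with edgeR adjusted p of 0.151 to 0.304. The median was 0.94 over primary granule genes, 1.62 over secondary granule genes, 1.62 over the calprotectin pair and -0.01 over all genes tested.

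The call for Ctsg did not hold when any of 5 libraries was left out: its edgeR adjusted p was 0.142 without A10, 0.201 without A8, 0.0998 without A1, 0.137 without A3 and 0.0985 without A4, and 0.00452 without A9, with log2 differences of 0.996 to 1.24 (adjusted p 0.000965 to 0.528 over all alternatives). Without A8, A10 and A16, the libraries short of GC-rich transcripts, AG221 is the single library A9, assumed to vary like the other groups, and no member was called by edgeR (Ctsg 0.83, adjusted p = 0.528). In that fit the log2 difference was 1.25 for Elane, 0.67 for Mpo, 1.06 for Prtn3, 1.02 for Ltf and 1.68 for S100a8. Elane passed without A3 (1.87, edgeR adjusted p = 0.0146) or without A9 (1.21, edgeR adjusted p = 0.0254), and over its alternatives ranged from 0.00411 to 0.439. Mpo passed without A9 (0.77, edgeR adjusted p = 0.0386, range over alternatives 0.0158 to 0.601). By DESeq2, 5 members were called higher, all 4 primary granule genes and S100a8, beside 1152 genes called higher in all (84 by edgeR). Without A8, A10, A1 or A4, edgeR called 0 of all genes tested in this comparison.

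Ruxolitinib alone gave no called difference in any member by edgeR: 0 of 10, beside 0.0168% of the genes tested (3 genes), with 2 members at an unadjusted p under 0.05 and 0 called by DESeq2. All fitted differences were positive, from 0.37 for Ctsg to 1.40 for Ltf, with edgeR adjusted p of 1. Elane (0.85 ± 0.32) and Mpo (0.55 ± 0.22) had unadjusted p of 0.0184 and 0.0257. Mpo was the 1 member with all ruxolitinib libraries above all vehicle libraries, beside 3.67% of the genes tested. The medians were 0.46 for primary granule genes, 1.09 for secondary granule genes, 0.89 for the calprotectin pair and 0.01 over all genes tested. Without A14 the secondary granule and calprotectin differences were smaller or negative, at -0.34 for Ngp, -0.30 for Camp, -0.47 for Lcn2, 0.03 for Ltf, -0.39 for S100a9 and 0.30 for S100a8. Without A3, Elane was called at 1.49 (edgeR adjusted p = 0.0346, range over alternatives 0.0346 to 1).

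With both drugs, all 10 members had lower fitted values than in vehicle, and Mpo fell. Mpo was lower by -0.86 ± 0.22 (log2, edgeR adjusted p = 0.0217), from 6669 ± 1361 to 3667 ± 1211 CPM, and was both the 1 member called, beside 4.21% of the genes tested called lower, and the 1 member with all combined libraries below all vehicle libraries, beside 15.2% of the genes tested. Elane stood at -0.81 ± 0.32 (edgeR adjusted p = 0.118), Prtn3 at -0.55 and Ctsg at -0.46, while Lcn2 stood at -1.34 ± 0.60 (edgeR adjusted p = 0.173) and Camp, S100a9, Ltf, Ngp and S100a8 at -0.83, -0.86, -0.69, -0.60 and -0.47. The median was -0.68 over primary granule genes, -0.76 over secondary granule genes, -0.67 over the calprotectin pair and 0.04 over all genes tested. The secondary granule values turned on single combined libraries: without B24, Ltf, Ngp, Camp and Lcn2 were at -0.12, -0.04, -0.29 and -0.90, and without B26 at -1.25, -1.93, -1.74 and -2.02.

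The call for Mpo was lost without B24 (-0.67, edgeR adjusted p = 0.0999), B25 (-0.81, adjusted p = 0.0847), A3 (-0.73, adjusted p = 0.0779) or A4 (-0.83, adjusted p = 0.0571) and in a fit of only the groups compared (-0.87, edgeR adjusted p = 0.0605), and the adjusted p ran from 0.00385 to 0.0999 over its alternatives. Without B26, the combined library with the most primary granule transcripts, Mpo (-1.15), Ctsg (-0.85, edgeR adjusted p = 0.0162) and Prtn3 (-0.83, edgeR adjusted p = 0.0377) were called, and Elane was called without A4 (-1.07, edgeR adjusted p = 0.0481). Over their alternatives, edgeR and DESeq2 adjusted p ran from 0.0162 to 0.643 for Ctsg, from 0.011 to 0.476 for Prtn3 and from 0.0423 to 0.617 for Elane. Elane was at -0.17 without A3, and S100a8 at 0.07 without the same library.

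**Figure D3:**
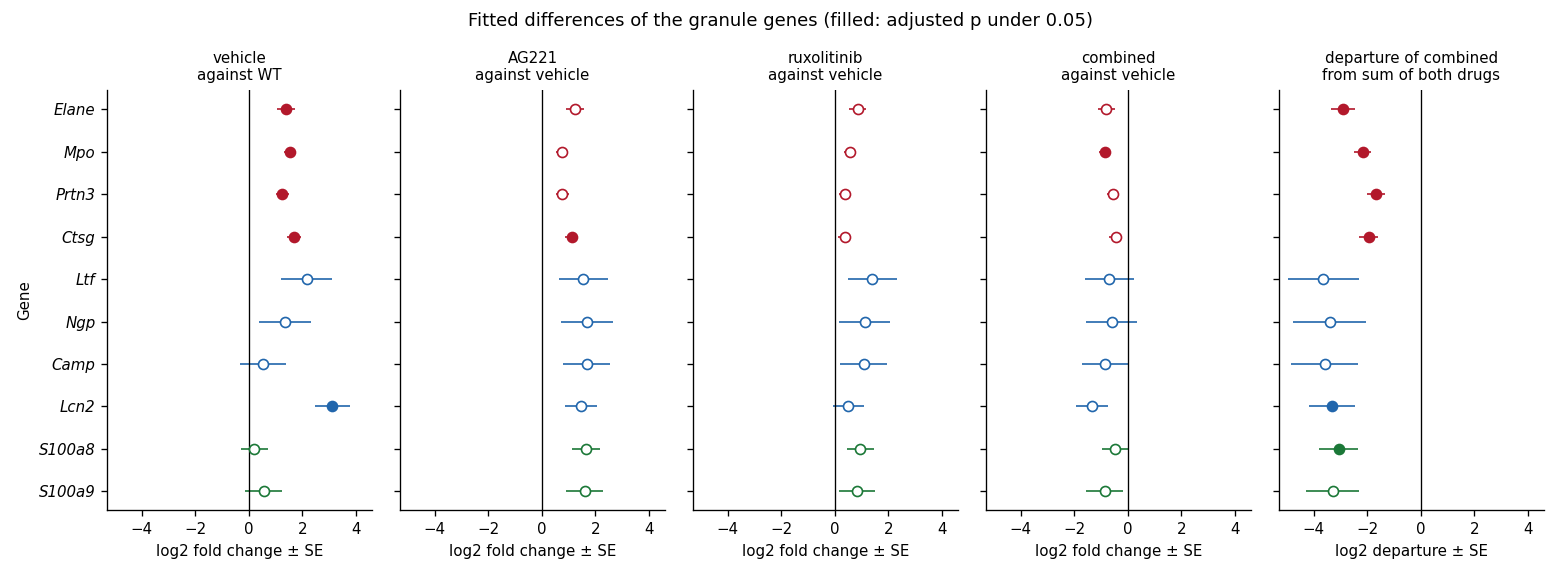
Fitted log2 differences ± SE of the 10 genes for vehicle against WT, the 3 treated groups against vehicle, and the departure of the combined group from the sum of both drugs. Red marks primary granule genes, blue secondary granule genes and green the calprotectin pair, and filled points passed an adjusted p of 0.05: 5, 1, 0, 1 and 6 genes from left to right.

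The combined value lay below what the single drugs would add up to. The departure was taken as combined minus AG221 minus ruxolitinib plus vehicle on the log2 scale, so that 0 means additive effects, and it was called negative for 6 of 10 members, beside 2.82% of the genes tested. It was -2.90 ± 0.46 for Elane (edgeR adjusted p = 0.0101), -2.17 ± 0.31 for Mpo (edgeR adjusted p = 0.00797), -1.95 ± 0.35 for Ctsg (edgeR adjusted p = 0.0181) and -1.69 ± 0.33 for Prtn3 (edgeR adjusted p = 0.027). All 4 primary granule genes thus passed. Of the others, Lcn2 (-3.32 ± 0.85, edgeR adjusted p = 0.0397) and S100a8 (-3.07 ± 0.73, edgeR adjusted p = 0.0362) passed, while S100a9 (-3.29, edgeR adjusted p = 0.054), Camp (-3.59, edgeR adjusted p = 0.077), Ltf (-3.64, edgeR adjusted p = 0.0854) and Ngp (-3.40, edgeR adjusted p = 0.111) did not. The fitted departures of the secondary granule genes were less precise, with a median of -3.50 beside -2.06 for primary granule genes, -3.18 for the calprotectin pair and 0.07 over all genes tested. Without A14 the class medians were -2.24, -1.88 and -2.24, with Ltf at -2.27, Ngp at -1.94 and Camp at -2.21.

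Elane and Mpo kept their call in each of the 12 fits that left out 1 library. Lcn2 lost it in 9 of them, with a log2 departure from -3.99 without B26 to -2.33 without A14 (edgeR adjusted p = 0.0202 and 0.0622, range over alternatives 0.0014 to 0.349). In those 9, the edgeR adjusted p was 0.1 without A10, 0.0934 without A8, 0.0959 without B24, 0.093 without B25, 0.0622 without A14, 0.051 without A16, 0.0619 without A17, 0.0854 without A3 and 0.0842 without A4. S100a8 lost it without A10, A8, B24, B25, A14, A17 or A4 (edgeR adjusted p 0.0846, 0.0876, 0.0985, 0.0882, 0.0507, 0.0608 and 0.0563, range over alternatives 6e-04 to 0.225). For Prtn3 it was lost without B24, B25, A17 or A4 (edgeR adjusted p 0.0814, 0.0831, 0.0558 and 0.0571, range over alternatives 0.000112 to 0.0831), and for Ctsg without B24 or B25 (edgeR adjusted p 0.0527 and 0.0647, range over alternatives 1.83e-05 to 0.191). Without A9, the departures of S100a9 (-3.34), Camp (-3.75) and Ltf (-3.83) were called as well, at an edgeR adjusted p of 0.0285, 0.0454 and 0.0492 (ranges over alternatives 0.00504 to 0.329, 0.0197 to 0.42 and 0.0233 to 0.47).

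Without A8, A10 and A16 the departures were of like size, with lone A9 assumed to vary like the other groups, at -3.11 for Elane, -2.24 for Mpo, -2.19 for Prtn3, -1.79 for Ctsg, -3.16 for Lcn2 and -3.42 for S100a8. Only Prtn3 was then called (edgeR adjusted p = 0.044), with Elane and Mpo at an edgeR adjusted p of 0.0649 (lowest over alternatives 1.4e-07 and 6.3e-08). With offsets for GC content, chosen after seeing the data as that omission was, the departure was -3.51 for Elane (edgeR adjusted p = 0.00231) and -2.96 for Prtn3 (edgeR adjusted p = 0.00198). The offsets also moved other values of these genes, which have the highest exon GC content of the members (57.4% and 61.2%). For Prtn3 the difference went from 0.77 to 1.52 in AG221 against vehicle, where it was then called (edgeR adjusted p = 0.0299, range over alternatives 0.0183 to 0.302), from 2.01 to 3.25 in AG221 against WT and from -1.31 to -2.61 in combined against AG221 (called with and without them). The difference also went from -0.55 to -1.08 in combined against vehicle, where it was then called (edgeR adjusted p = 0.011). In combined against ruxolitinib it went from -0.92 to -1.44. For Elane it went from 2.62 to 3.24 in AG221 against WT and from -2.05 to -2.67 in combined against AG221, called in each case.

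Set directly against AG221 alone, cells given both drugs had less of the granule transcripts. The letter B sets the combined group apart from AG221, vehicle and ruxolitinib, so letter and treatment cannot be told apart in these comparisons. All 10 members had each combined library below each AG221 library, beside 20.3% of the genes tested, and 8 of 10 were called lower, beside 14.3%. Elane fell by 2.05 ± 0.33 (log2, edgeR adjusted p = 0.00227), Ctsg by 1.58 ± 0.25 (edgeR adjusted p = 0.00215), Mpo by 1.61 ± 0.23 (edgeR adjusted p = 0.00132) and Prtn3 by 1.31 ± 0.24 (edgeR adjusted p = 0.00309). The calprotectin genes fell too, S100a8 by 2.12 ± 0.52 (edgeR adjusted p = 0.00931) and S100a9 by 2.46 ± 0.72 (edgeR adjusted p = 0.0199). Of the secondary granule genes, Lcn2 fell by 2.81 ± 0.63 (edgeR adjusted p = 0.00595) and Camp by 2.52 ± 0.91 (edgeR adjusted p = 0.0473), whereas Ltf (-2.24, edgeR adjusted p = 0.0838) and Ngp (-2.29, edgeR adjusted p = 0.0897) did not pass. The medians were -1.597, -2.40 and -2.29 for primary granule, secondary granule and calprotectin genes, and 0.11 over all genes tested.

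Camp lost its call without A10 (-2.27, edgeR adjusted p = 0.116), A8 (-2.67, adjusted p = 0.0818), B24 (-1.97, adjusted p = 0.109) or B25 (-2.49, adjusted p = 0.12), with a range of 0.00984 to 0.335 over alternatives, and S100a9 lost it without A10 (-2.33, edgeR adjusted p = 0.0543) or B24 (-2.04, edgeR adjusted p = 0.0761), with a range of 0.001 to 0.153. Ngp was called without B26 (-3.61, edgeR adjusted p = 0.0343, range over alternatives 0.0276 to 0.52). Without A8, A10 and A16 together, 2 members were called, Mpo (-1.57, edgeR adjusted p = 0.0494, range from 1.86e-09) and Prtn3 (-1.64, edgeR adjusted p = 0.0211, range from 2.52e-06), and Elane stood at -2.10, Ctsg at -1.32, Lcn2 at -2.31 and S100a8 at -2.18.

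Against ruxolitinib alone, all 4 primary granule genes fell with both drugs, and the other 6 members had negative fitted values that did not pass the test. Elane fell by 1.67 ± 0.32 (edgeR adjusted p = 0.00495), Mpo by 1.42 ± 0.22 (edgeR adjusted p = 0.00205), Prtn3 by 0.92 ± 0.24 (edgeR adjusted p = 0.0205) and Ctsg by 0.83 ± 0.24 (edgeR adjusted p = 0.0406). These were 4 of 10 members beside 3.94% of the genes tested, and 5 members, the same 4 and S100a8, had all combined libraries below all ruxolitinib libraries, beside 15.6% of the genes tested. Lcn2 stood at -1.85 ± 0.61 (edgeR adjusted p = 0.0648) and S100a8 at -1.42 ± 0.51 (edgeR adjusted p = 0.0931), with Ltf, Camp, Ngp and S100a9 at -2.09, -1.91, -1.72 and -1.69. Medians were -1.17 for primary granule genes, -1.88 for secondary granule genes, -1.56 for the calprotectin pair and 0.01 over all genes tested. Without A14 the class medians were -0.97, -0.63 and -0.62, with Ltf at -0.72, Ngp at -0.26, Camp at -0.53, Lcn2 at -0.87, S100a8 at -0.77 and S100a9 at -0.47. Without B26, Ngp and Camp were at -3.04 and -2.81.

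The calls of Elane and Mpo held without any 1 library. Prtn3 lost its call without B24 (-0.74, edgeR adjusted p = 0.105), B25 (-0.86, adjusted p = 0.088), A14 (-0.71, adjusted p = 0.0923) or A17 (-0.94, adjusted p = 0.0557), and Ctsg without the same libraries (-0.63, -0.70, -0.68 and -0.87, edgeR adjusted p 0.182, 0.161, 0.139 and 0.0848). The adjusted p ran from 0.00206 to 0.105 for Prtn3 and from 0.00214 to 0.182 for Ctsg over all alternatives. Lcn2 was called without B26 (-2.52, edgeR adjusted p = 0.031) or A16 (-2.21, edgeR adjusted p = 0.0483), and its adjusted p ran from 0.0109 to 0.356 over its alternatives.

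Each treated group was also compared with WT, to ask how far from wild-type cells it stood, and these comparisons share the WT libraries with each other and with vehicle against WT. With AG221, 9 of 10 members were called higher than WT, beside 22.2% of the genes tested, and all 10 were above WT in each library, beside 25.3%. Lcn2 rose by 4.599 ± 0.69 (edgeR adjusted p = 0.000371), Ctsg by 2.81 ± 0.26 (edgeR adjusted p = 1.97e-05), Elane by 2.62 ± 0.34 (edgeR adjusted p = 0.000181) and Mpo by 2.28 ± 0.23 (edgeR adjusted p = 4.24e-05). Prtn3 (2.01), Ltf (3.71), Ngp (3.03), S100a8 (1.85) and S100a9 (2.15) passed as well, and Camp stood at 2.22 ± 0.90 (edgeR adjusted p = 0.0524). Ngp lost its call without A10, B28, B30 or B31 (2.62, 2.86, 3.32 and 2.97, edgeR adjusted p 0.0682, 0.0775, 0.0545 and 0.0682, range over alternatives 0.00201 to 0.183), and S100a9 without the same libraries (2.003, 1.98, 2.33 and 2.19, edgeR adjusted p 0.0567, 0.0756, 0.0511 and 0.0558, range over alternatives 0.00157 to 0.122). Camp was called without A9 (2.40, edgeR adjusted p = 0.0497, range over alternatives 0.00303 to 0.249). Without A8, A10 and A16, 5 members were called, the 4 primary granule genes at 2.22 to 2.65 and Lcn2 at 4.08.

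With ruxolitinib, 6 of 10 members were called higher than WT, beside 16.1% of the genes tested, the 4 primary granule genes (1.63 to 2.24), Lcn2 (3.63 ± 0.66, edgeR adjusted p = 0.00328) and Ltf (3.55 ± 1.01, edgeR adjusted p = 0.0198). Ngp (2.46, edgeR adjusted p = 0.0718), Camp (1.61, edgeR adjusted p = 0.167), S100a8 (1.15, edgeR adjusted p = 0.0949) and S100a9 (1.39, edgeR adjusted p = 0.135) were not. All ruxolitinib libraries were above all WT libraries for 7 members (Elane, Mpo, Prtn3, Ctsg, Ltf, Ngp and Lcn2), beside 25.4% of the genes tested. The values that were not called turned on A14, without which Ngp was at 1.03, Camp at 0.26, S100a8 at 0.52 and S100a9 at 0.18. Ltf was at 2.21 without A14 (edgeR adjusted p = 0.086), and it also lost its call without B28 (3.61), B30 (3.66) or B31 (3.43), at an edgeR adjusted p of 0.0574, 0.0711 and 0.0553 (range over alternatives 0.00263 to 0.086), while Lcn2 was at 2.67 without A14 (edgeR adjusted p = 0.00963, range over alternatives 4.78e-08 to 0.0199).

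By class median, the granule transcripts of the combined group were nearest to WT. Combined and WT libraries share the letter B, so the letter and this nearness cannot be told apart. Only Ctsg was called higher, by 1.23 ± 0.25 (edgeR adjusted p = 0.0211), 1 of 10 members beside 1.63% of the genes tested, and the call was lost without B28 (1.20, edgeR adjusted p = 0.0873) or B30 (1.25, edgeR adjusted p = 0.0725), with a range of 0.000319 to 0.0873 over alternatives. All combined libraries were above all WT libraries for 4 members, the primary granule genes, beside 22.3% of the genes tested. Mpo stood at 0.67 ± 0.22 (edgeR adjusted p = 0.093), Prtn3 at 0.70 ± 0.24 (edgeR adjusted p = 0.097) and Elane at 0.57 ± 0.32 (edgeR adjusted p = 0.274). Lcn2 (1.79 ± 0.62, edgeR adjusted p = 0.106) and Ltf (1.46) had larger fitted values, and Camp, S100a8 and S100a9 stood at -0.30, -0.27 and -0.31. A difference that misses the threshold does not show that the levels were the same. The secondary granule values turned on B24 and B26, since Camp was at 0.26 without B24 and -1.18 without B26, and Ngp at 1.33 and -0.57.

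The median log2 difference from WT for primary granule genes was 1.46 in vehicle, 2.45 in AG221, 2.07 in ruxolitinib and 0.69 in combined cells, and that for secondary granule genes 1.75, 3.37, 3.005 and 1.10. The calprotectin pair stood at 0.38, 2.003, 1.27 and -0.29, and all genes tested at -0.09, -0.25, -0.14 and 0.04. Both granule classes thus had their highest values with AG221 alone and their lowest mutant values with both drugs, the mutant group that shares the letter B with WT. For secondary granule genes the order turned on single libraries, as the ruxolitinib median was 1.62 without A14, the AG221 median 2.97 without A10, and the combined median 1.69 without B24 and 0.18 without B26.

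Other granule genes came from lists chosen with earlier results known. Of all genes tested, 15.4%, 22.2%, 16.1% and 1.63% were called higher in vehicle, AG221, ruxolitinib and combined against WT, and 0.471% in AG221 against vehicle. The shares called lower were 4.21%, 14.3% and 3.94% in combined against vehicle, AG221 and ruxolitinib, and 2.82% for the departure. Of 8 other primary granule genes, 7 passed the filter on low counts (Bpi, at 0 to 10 counts, did not), and 5 rose in vehicle against WT, 7 in AG221 and 5 in ruxolitinib against WT, while 7 fell in combined against AG221. Prss57, a serine protease of primary granules, had group means of 35.7 CPM in WT, 95.4 in vehicle, 195 in AG221, 127 in ruxolitinib and 74.7 in combined libraries, the order of the primary granule members, and was the 1 gene of the list called higher in AG221 against vehicle (1.03 ± 0.21, edgeR adjusted p = 0.0458). Cst7 (-1.02, edgeR adjusted p = 0.00768) and Srgn (-0.47, edgeR adjusted p = 0.0167) fell in combined against vehicle, and Prss57 and Cst7 fell against ruxolitinib and were above WT. The medians over the list were 0.74 in vehicle against WT, 0.63, -0.02 and -0.38 in AG221, ruxolitinib and combined against vehicle, and -0.93 for the departure, which was called negative for 5 genes.

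Of 16 other genes of later granules, 15 were tested (Olfm4 was not), and the numbers called were 5 higher in vehicle against WT, 13 in AG221 and 9 in ruxolitinib against WT, 0 in combined against WT by edgeR (3 at an unadjusted p under 0.05), and 12 lower in combined against AG221. The shares of all genes tested were 15.4%, 22.2%, 16.1%, 1.63% and 14.3% in the same order. Hp, which encodes haptoglobin, stood at 29.9 ± 4.37 CPM in WT, 103 ± 12.6 in vehicle, 318 ± 81.6 in AG221, 148 ± 45.4 in ruxolitinib and 57.3 ± 16.4 in combined libraries. It rose in AG221 (1.63 ± 0.25, edgeR adjusted p = 0.0458) and fell in combined libraries (-0.84 ± 0.25, edgeR adjusted p = 0.0423) against vehicle, with a departure of -3.002 ± 0.36 (edgeR adjusted p = 0.00363). Slpi (1.38) and Cyba (0.71), at the same edgeR adjusted p of 0.0458, were the other genes of the list called in AG221 against vehicle, 3 in all. In ruxolitinib against vehicle edgeR called 0 genes of either list, with 0 and 2 at an unadjusted p under 0.05, and 3 of the later list (Cybb, Hp and Slpi) fell in combined against ruxolitinib. The departure was called for 8 of 15, and the list medians were 0.88 in vehicle against WT, 1.26, 0.53 and -0.52 in AG221, ruxolitinib and combined against vehicle, and -2.23 for the departure.

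Some transcripts of mature neutrophils were scarce, but not all of those listed. Ly6g, their defining surface marker, stood at 0.0726, 0 and 0.101 CPM in WT, 0.6015, 0.0319 and 0.158 in vehicle, 0.513, 0.422 and 2.255 in AG221, 2.025, 0.684 and 0.2985 in ruxolitinib, and 0.0522, 0.311 and 0.324 in combined libraries. A10 and A14 were highest, and the WT libraries, A3 and B24 were at or under the floor of 3 counts. BC100530 was at 0 in 13 of 15 libraries and Stfa2l1 had at most 8 counts, and 1 to 5 of the 14 listed genes were at or under 3 counts in each library. Other listed genes were more abundant, such as Trem3 (123, 77.6 and 95.2 CPM in AG221) and Trem1 (35.7, 14.8 and 27.6 CPM in AG221). The summed level of the list ran from 255 CPM in B24 to 665 CPM in A8 and consisted mostly of Csf3r (193 to 438 CPM), the G-CSF receptor, which progenitors also express. By library the sum was 344, 268 and 295 CPM in WT, 430, 349 and 342 in vehicle, 665, 406 and 576 in AG221, 520, 346 and 427 in ruxolitinib, and 255, 256 and 330 in combined libraries. Of 12 genes tested, 4 were higher in vehicle against WT (Cxcr2, Trem1, Trem3 and Clec4d), 1 in AG221 against vehicle (Trem3, 1.51, edgeR adjusted p = 0.0458), 6 each in AG221 and ruxolitinib against WT and 1 in combined against WT (Clec4d), while 5 fell in combined against AG221, 1 in combined against vehicle (Trem1) and 1 against ruxolitinib (Trem3). Of all genes tested, the shares in the same order were 15.4%, 0.471%, 22.2%, 16.1% and 1.63% higher and 14.3%, 4.21% and 3.94% lower. The list medians were 1.35 in vehicle against WT and 0.65, 0.56 and -0.41 in AG221, ruxolitinib and combined against vehicle, where edgeR called 0 in ruxolitinib (2 at an unadjusted p under 0.05). The lineage cocktail used in the sort holds antibodies to Gr-1 and Mac1, and how fully it removed mature neutrophils was not tested. Itgam, which encodes Mac1, stood at 28.1 to 85.3 CPM. The part of any such cells in the granule gene differences was not tested.

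Markers of granulocyte-monocyte progenitors, the stage at which primary granule genes come on, had summed levels whose group means came in the order of the primary granule genes. All 8 were tested, and the summed level was 1216, 1271 and 1508 CPM in WT, 3051, 2447 and 3344 in vehicle, 6142, 4194 and 5120 in AG221, 3630, 2619 and 3239 in ruxolitinib, and 1886, 1629 and 2623 in combined libraries. Plac8 was the most abundant of them in each of the 12 mutant libraries, and none was at or under 3 counts. The numbers called were 7 higher in vehicle, 8 in AG221, 7 in ruxolitinib and 1 in combined against WT (Nkg7), 1 higher in AG221 against vehicle (Fcgr3, 1.32, edgeR adjusted p = 0.0458), 2 lower in combined against vehicle (Ms4a3, -1.17, edgeR adjusted p = 0.0105, and Igsf6, -1.04, edgeR adjusted p = 0.0271), 6 lower against AG221, 5 lower against ruxolitinib and 6 with a negative departure. The shares of all genes tested were, in the same order, 15.4%, 22.2%, 16.1%, 1.63% and 0.471% higher and 4.21%, 14.3%, 3.94% and 2.82% lower. In ruxolitinib against vehicle edgeR called 0 (3 at an unadjusted p under 0.05), and the list medians were 1.10 in vehicle against WT and 0.98, 0.32 and -0.52 in AG221, ruxolitinib and combined against vehicle. Ms4a3, a gene of granulocyte-monocyte progenitors, stood at 91.8 ± 4.69 CPM in WT, 400.4 ± 122 in vehicle, 874 ± 208 in AG221, 461 ± 82.6 in ruxolitinib and 178 ± 50.6 in combined libraries. Such progenitors lack Sca-1, which the LSK gate requires, and how many passed the gate was not tested. The part of these transcripts in the granule gene differences was not tested.

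**Figure D4:**
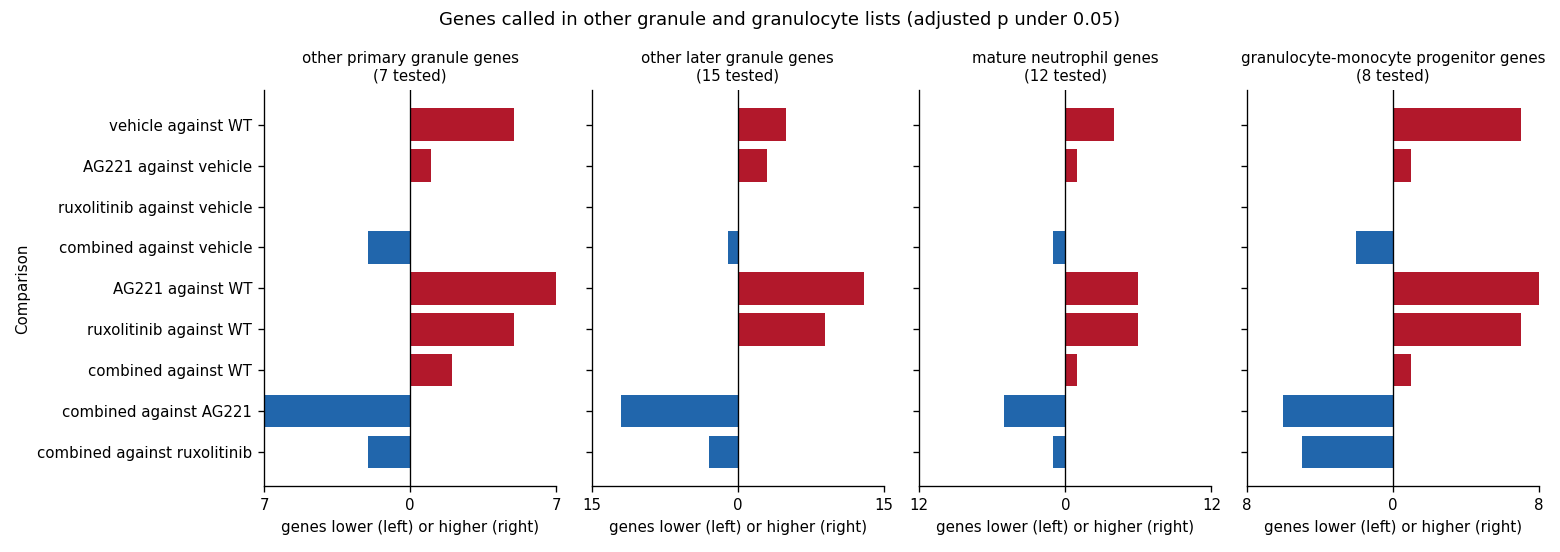
Number of genes called lower (blue, left) or higher (red, right) at an adjusted p under 0.05 in each of 9 comparisons, for 7 other primary granule genes, 15 other later granule genes, 12 mature neutrophil genes and 8 granulocyte-monocyte progenitor genes. In AG221 against WT 7, 13, 6 and 8 genes were higher, and in ruxolitinib against vehicle none was called in these lists.

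Among 12 transcription factors known to act on granule genes, Cebpe, which encodes the factor that switches on secondary granule genes, stood at 6.24, 3.61 and 6.00 CPM in WT, 9.29, 25.8 and 11.45 in vehicle, 13.7, 28.3 and 11.7 in AG221, 33.9, 16.2 and 21.6 in ruxolitinib, and 4.49, 7.015 and 6.06 in combined libraries. Combined libraries were thus at the level of WT, below all libraries of the other mutant groups. The letter B is shared by WT and combined libraries, so it and this pattern cannot be told apart. Cebpe rose in vehicle (1.55 ± 0.44, edgeR adjusted p = 0.0193) against WT and fell in combined cells against ruxolitinib (-2.02 ± 0.45, edgeR adjusted p = 0.00942) and AG221 (-1.61 ± 0.44, edgeR adjusted p = 0.0151), with a departure of -2.23 ± 0.62 (edgeR adjusted p = 0.0451). Gfi1, a repressor needed for neutrophil differentiation, rose in combined against vehicle (1.47 ± 0.38, edgeR adjusted p = 0.0213), the 1 of 12 called there, beside 8.28% of the genes tested called higher. In AG221 and ruxolitinib against vehicle edgeR called 0 of the 12, with 2 and 0 at an unadjusted p under 0.05. Against WT, AG221 cells had 2 higher (Cebpb and Cebpe) and 4 lower (Myb, Runx1, Cux1 and Rara), beside 22.2% and 28.5% of the genes tested, ruxolitinib cells 1 higher (Cebpe) and combined cells 0 by edgeR (2 at an unadjusted p under 0.05). In combined against AG221, 5 were higher (Cebpd, Spi1, Myb, Runx1 and Cux1), beside 18.9% of the genes tested. Spi1, which encodes PU.1, stood at 21.9, 22.8 and 27.4 CPM in A8, A10 and A16, the libraries short of GC-rich transcripts, and at 54.2 to 174 CPM in the other 12. The low AG221 values of Cebpd, Myb, Runx1 and Rara also lay in A8 and A10 (0.385 and 0.255, 214 and 180, 44.1 and 42.9, 2.31 and 3.02 CPM), and A16 (0.427, 178, 40.1 and 3.29 CPM) was the lowest ruxolitinib library for each. A9, which was not short of GC-rich transcripts, stood higher, at 335 CPM for Myb, 82.9 for Runx1 and 8.35 for Rara, but below all WT libraries (389 to 488, 123 to 172 and 8.76 to 11.3 CPM). It was also below all combined libraries for Cebpd (1.88 against 5.23 to 12.3 CPM) and Spi1 (97.9 against 145 to 174 CPM).

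Markers of other cells differed with the groups too. Of all genes tested, 15.4%, 22.2%, 16.1% and 1.63% were called higher in vehicle, AG221, ruxolitinib and combined cells against WT. Called lower were 14.3% in combined against AG221 and 4.21% in combined against vehicle. The 10 monocyte and dendritic cell markers summed to 302, 366 and 252 CPM in WT, 1136, 1024 and 1121 in vehicle, 2914, 1819 and 1977 in AG221, 1740, 952 and 1408 in ruxolitinib, and 575, 494 and 1091 in combined libraries, led by Ccr2 or Ly6c2, and 6, 7, 7 and 1 of 10 were called higher in vehicle, AG221, ruxolitinib and combined cells against WT, and 7 lower in combined against AG221. Mast cell and basophil markers (7) summed to 190, 105 and 139 CPM in WT, 647, 696 and 1180 in vehicle, 686, 785 and 813 in AG221, 434, 458 and 414 in ruxolitinib and 292, 382 and 475 in combined libraries, led mostly by Cpa3, with 6 of 7 higher in vehicle against WT and 3 lower in combined against vehicle. Their order differed from that of the granule genes, with ruxolitinib below vehicle, although edgeR called 0 there (3 at an unadjusted p under 0.05). Of the tested erythroid markers, 3, 6, 8 and 0 of 9 were called higher by edgeR in vehicle, AG221, ruxolitinib and combined cells against WT, with 3 at an unadjusted p under 0.05 in the last, and the summed level was 268, 345 and 403 CPM in WT, 677, 787 and 1286 in vehicle, 1548, 1219 and 1785 in AG221, 951, 3580 and 923 in ruxolitinib, and 620.1, 1612 and 866 in combined libraries. Marrow was depleted of mature cells before the sort, and the lineage cocktail also held antibodies to Ter119 (erythroid cells) and B220 (B cells). How fully these steps removed such cells was not tested. The part of these cells in the granule gene differences was not tested.

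The LSK and stem cell markers (12) summed to 2514 to 3893 CPM in the mutant libraries and 4403 to 4796 in WT, with 2 higher (Slamf1 and Cd48) and 3 lower in vehicle against WT (Flt3, Procr and Hlf), 8 lower in AG221, 3 in ruxolitinib and 0 in combined against WT by edgeR (6 at an unadjusted p under 0.05). In AG221 against WT 1 of these markers was higher, as was 1 in ruxolitinib against WT. Of all genes tested, 17.9%, 28.5%, 16.2% and 1.61% were lower in vehicle, AG221, ruxolitinib and combined against WT. Those higher were 15.4%, 22.2%, 16.1% and 1.63% in the same order. Hlf, a stem cell transcription factor, stood at 319, 295.5 and 219 CPM in WT, 50.75, 103 and 24.5 in vehicle, 34.5, 65.2 and 48.8 in AG221, 47.8, 52.6 and 74.7 in ruxolitinib, and 171.5, 123 and 96.7 in combined libraries. WT libraries were highest and combined libraries, except B26 beside A3, above the other mutant groups. In combined against AG221, 3 of the 12 markers were higher and 1 lower, beside 18.9% and 14.3% of the genes tested. Hlf was among those higher (1.40 ± 0.41, edgeR adjusted p = 0.021). The plasma cell markers summed to 463 to 1030 CPM in WT and 8.81 to 78.0 CPM elsewhere, led by Jchain except in A17 and B24 (Sdc1), and 5 of 5 were lower in vehicle, in AG221 and in ruxolitinib and 4 of 5 in combined against WT. For the remaining lists, in vehicle against WT 1 of 7 eosinophil, 2 of 5 megakaryocyte and, by edgeR, 0 of 7 macrophage markers were higher, 4 of 8 B-lineage markers were lower, and edgeR called 0 of 7 T and NK cell markers and 0 of 8 lineage cocktail antigens. B-lineage markers were lower for 6 of 8 in AG221 and 1 of 8 in combined against WT, and megakaryocyte markers higher for 1, 2 and 3 of 5 in AG221, ruxolitinib and combined against WT. Macrophage markers were higher for 2 of 7 in AG221 and in ruxolitinib against WT. They were lower for 2 of 7 in combined against AG221 and against ruxolitinib, and 2 had a negative departure. The shares of the genes tested there were 14.3%, 3.94% and 2.82%. Lineage cocktail antigens were higher for 2 of 8 in AG221 and in ruxolitinib against WT, with 1 lower in AG221. Beside them, 22.2% and 16.1% of the genes tested were higher, and 28.5% lower in AG221. In combined against AG221, 2 of these antigens were lower, beside 14.3% of the genes tested. The part of such cells in the granule gene differences was not tested. Among the lists with a count of 0 in vehicle against WT, 1 macrophage, 1 T and NK cell and 2 lineage genes had an unadjusted p under 0.05.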

How the data were processed

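RNA was sequenced from 15 libraries of sorted CD45.2+ LSK cells after SMARTer amplification. The values are raw counts per Ensembl gene that the authors made with STAR 2.5.1a on mm10 and deposited as 1 table, and the authors' own tests used DESeq2 1.6.3. Totals ran from 18836625 to 32174287 counts per library.

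IDs were matched to symbols with GENCODE M21, which gave a symbol to 44585 of 45232. Counts were filtered by group (17834 genes tested), scaled by TMM and fitted with edgeR 4.0.16 in R 4.3.3 (limma 3.58.1) over all 5 groups of 3 libraries, without covariates, by quasi-likelihood F tests with Benjamini-Hochberg adjustment. Log2 CPM used a prior count of 2, and RPKM the exon length. The steps were tested on simulated data. Alternatives were DESeq2 1.42.0, other scalings and filters, a robust fit, separate fits per comparison, and omission of each library in turn. Offsets for GC content and leaving out AG221 A8, AG221 A10 and ruxolitinib A16 together were chosen after seeing the data.

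The members and lists were chosen with earlier results of these data known. The genes named are the 10 members, listed genes called in a comparison described or that define another cell type, and, for the primary and the secondary granule mean, the 6 other genes with the highest Pearson r. The lists were other primary granule, other later granule, mature neutrophil, granulocyte-monocyte progenitor, transcription factor, LSK and stem cell, lineage antigen, monocyte and dendritic cell, macrophage, eosinophil, mast cell and basophil, erythroid, megakaryocyte, B-lineage, plasma cell, and T and NK cell genes.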

Additional observations from a re-analysis of the deposited data

Results flagged for a closer look

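For 6 members the effect of AG221 differed between mice given ruxolitinib and mice not given it, by the test of the difference itself (the edgeR contrast of combined minus ruxolitinib against AG221 minus vehicle, n = 3 libraries per group). The log2 difference between both effects was -2.90 for Elane, -2.17 for Mpo, -1.95 for Ctsg and -1.69 for Prtn3, the primary granule genes. It was -3.32 for the secondary granule gene Lcn2 and -3.07 for S100a8. Of the 12 fits that left out 1 library, Elane and Mpo kept their call in all 12, Ctsg in 10, Prtn3 in 8, S100a8 in 5 and Lcn2 in 3. The number called was 2 without B24 or B25, 3 without A17 or A4 or with only the groups compared in the fit, and 1 without A8, A10 and A16, an omission chosen after seeing the data. The letters in the replicate names also separate the combined group from the other 3 groups in this contrast, so the letter and the difference cannot be told apart. Of all genes tested, 57, 39, 72 and 78 had a negative departure without B24, B25, A17 and A4, against 503 in the main fit. With only the groups compared in the fit, 125 had one. Groups of 3 libraries were not tested for outlying values.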

How the results depend on the processing

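Over all 10 comparisons, 821 of 900 member results under settings other than leaving out 1 library kept their direction and their side of the threshold, 24 lost their call, 55 gained one and 0 changed sign. With 1 library left out, 578 of 660 were kept, 59 lost their call, 14 gained one and 9 changed sign.

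By DESeq2, 5 members were called in AG221 against vehicle and 2 in combined against WT. Of all genes, DESeq2 called 1152 and 958 higher in these comparisons, against 84 and 291 by edgeR. With offsets for GC content, chosen after seeing the data, 3 were called in AG221 and 3 in combined against vehicle. Those offsets gave 190 of all genes higher in AG221 and 1014 lower in combined against vehicle, against 84 and 750 in the main fit. Without a filter the numbers were 3 in AG221 against vehicle, 2 in combined against WT and 10 for the departure from the sum of both drugs, with a filter at a mean of 1 CPM 2 in AG221 against vehicle, and with upper quartile scaling 4 there. Counts over all genes without a filter were 66 higher, 317 higher and 419 negative in the same order. In AG221 against vehicle, 559 of all genes were higher with the filter at 1 CPM and 571 with upper quartile scaling. Fitting only the groups compared, with fewer libraries to estimate the spread, gave 0 in AG221 and 0 in combined against vehicle, 2 in combined against WT, 2 in combined against ruxolitinib and 3 for the departure. Over all genes, these fits called 0 in AG221 against vehicle and 837 lower in combined against vehicle. They called 630 higher in combined against WT, 667 lower in combined against ruxolitinib and 125 with a negative departure (503 in the main fit). Without A8, A10 and A16, also chosen after seeing the data, with lone A9 assumed to vary like the other groups, the numbers were 0 in AG221 against vehicle, 5 in AG221 against WT, 2 in combined against AG221 and 1 for the departure. Where fewer libraries do not show it, the cause was not tested.

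With each library left out in turn, the number called ran from 0 to 3 in AG221 against vehicle, 0 to 1 in ruxolitinib against vehicle, 0 to 3 in combined against vehicle, 0 to 1 in combined against WT, 2 to 5 in combined against ruxolitinib and 2 to 9 for the departure. It was 0 in AG221 against vehicle without A8, A10, A1 or A4 and 3 without A9, 0 in combined against vehicle without B24, B25 or A3 and 3 without B26, 0 in combined against WT without B28 or B30, 1 in ruxolitinib against vehicle without A3, and 2 in combined against ruxolitinib without B24, B25, A14 or A17. Of all genes tested in AG221 against vehicle, 0 were called without A8, A10, A1 or A4. Without A9, 1497 were called higher there, against 84 in the main fit. In combined against vehicle, 306, 302 and 514 of all genes were lower without B24, B25 and A3. Without B26, 569 were lower there, against 750 in the main fit. For the departure it was 2 without B24 or B25, 3 without A17 or A4, and 9 without A9. Of all genes tested, the departure was called negative for 57 and 39 without B24 and B25, and for 72 and 78 without A17 and A4. It was called negative for 2165 without A9, against 503 in the main fit. The 9 changes of sign were all in results that did not pass the test. Against vehicle, ruxolitinib ranged from -0.30 to 1.56 for Camp, -0.47 to 0.85 for Lcn2, -0.34 to 1.58 for Ngp and -0.39 to 1.27 for S100a9, each lowest without A14. Combined against WT ranged from -1.18 to 0.26 for Camp, -0.57 to 1.33 for Ngp and -0.61 to 0.13 for S100a9, each lowest without B26 and highest without B24. S100a8 ranged from -0.91 to 0.073 in combined against vehicle and from -0.32 to 0.66 in vehicle against WT, where A3 and A4 set the ends.

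The difference between the classes in WT was 6.95 from the log2 of summed CPM, against 6.60 from the mean of log2 CPM. Upper quartile scaling moved the median of all genes in AG221 against vehicle from -0.01 to 0.18, in combined against AG221 from 0.11 to -0.18, and for the departure from 0.07 to -0.24, and no member changed sign under it. No paired analysis was possible because replicate names share no number across groups. The paper states that mice were matched on blood values, chimerism and weight before treatment, but the labels do not show which libraries were matched. At 18836625 counts or more, depth limited only genes near the floor, such as Ltf and Camp in B24.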
